A study of Arabidopsis with 12 samples.

Results

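The 10 genes described here encode chaperones, co-chaperones and companion proteins that are known in Arabidopsis thaliana for their induction by heat: HSP101, HSA32, HSP70, HSP70B, BAG6, HSP90.1, HOP3, ROF1, ROF2 and MBF1C. They were found by gene identifier in the deposited expression table. Loci of 1 identifier were to be chosen by mean FPKM, but each identifier stood on 1 locus and no choice was made. The list itself was chosen by function with earlier results in view, namely high levels of heat shock genes in the wild type under the -Fe label. The members are 10 of 28693 loci, and all 10 passed the filter on low values that left 20173 loci for testing (at least 3 libraries with 1 FPKM or more). FPKM is scaled to gene length and to the fragments mapped, so levels can be set side by side between genes. The name of the group is background knowledge: the labels give 1 growth temperature, 24 °C, and no heat treatment.

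RNA was sequenced from seedlings of the pad4 mutant and of the wild type, both in the Columbia (Col-0) accession. PAD4 is a lipase-like protein that works with EDS1 in defence and in salicylic acid accumulation. The 4 groups, of 3 libraries each, were pad4 labelled -Fe (medium without iron), pad4 labelled +Fe (complete medium), wild type labelled -Fe and wild type labelled +Fe, after 7 d of treatment with light of 140 µmol photons for 16 h and darkness for 8 h a day. The protocol gives the age at harvest as 7 d. The series asked how salicylic acid relates to the iron deficiency response. The allele of pad4 is not given in the sources used here, and neither is whether replicates came from separate cultures, so p-values cover only the spread among the 3 samples of a group, which may be technical.

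The labels were checked before any difference was read. PAD4 lay at 10.3 to 13.6 FPKM in the 6 pad4 libraries and at 18.1 to 22.0 FPKM in the 6 wild-type libraries, so its transcript was lower in the mutant but present. The iron labels ran against genes of iron status. BHLH100, a transcription factor gene induced when iron is short, lay at 0.122 to 0.666 FPKM in the 6 libraries labelled -Fe and at 976 to 1137 FPKM in the 6 labelled +Fe, and FER1, a ferritin gene raised by iron, lay at 271 to 333 and 10.3 to 11.8 FPKM in the same order. Directions below are therefore directions between labels, not between iron supplies. The labels name the tissue as shoot, as leaves and roots, and as seedlings. The summed level of 5 shoot marker genes was 23247 to 30212 FPKM in pad4 labelled -Fe, 13164 to 15485 FPKM in pad4 labelled +Fe, 18440 to 23638 FPKM in wild type labelled -Fe and 12208 to 14463 FPKM in wild type labelled +Fe. It was higher under the -Fe label in both genotypes without overlap, 3 of the 5 genes passing the test in each (limma), and its part in the label differences below was not tested. The summed level of 6 root marker genes, SCR the highest of them, was 37.3 to 42.9 FPKM in pad4 labelled -Fe and 32.1 to 42.3 FPKM in pad4 labelled +Fe. In the wild type it was 27.5 to 36.4 FPKM labelled -Fe and 36.1 to 40.6 FPKM labelled +Fe. Single root markers disagreed between the labels. IRT1 and PRX72 were lower under the -Fe label in both genotypes, and GL2 was higher in pad4 (limma adjusted p under 0.05). IRT1, a metal transporter gene, split the labels in the same direction as BHLH100. It lay at 0 to 0.068 FPKM labelled -Fe and at 3.95 to 6.19 FPKM labelled +Fe. SCR, SHR and CASP1 passed in neither genotype, and whether root content differed was not tested. Libraries differed little in loci at 1 FPKM or more (19096 to 19311), and their relative depth was 0.60 to 1.00 of that of wild type labelled +Fe replicate 1. FPKM of 1 library depend on each other: the highest single locus took 4.29 ± 1.69% of the FPKM in pad4 labelled -Fe, 11.0 ± 3.36% in pad4 labelled +Fe, 4.97 ± 1.18% in wild type labelled -Fe and 13.7 ± 0.20% in wild type labelled +Fe (SD, n = 3 each).

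Molecular chaperones keep other proteins folded. Hsp70 binds unfolded stretches of a client with the help of J-domain and nucleotide exchange factors, HOP passes clients from Hsp70 to Hsp90, and Hsp90 matures them together with further co-chaperones such as the FKBP immunophilins. HSP101 works after damage has occurred: with Hsp70 it pulls proteins out of aggregates. In plants these genes are switched on within minutes of heat by heat shock factors (HSFs), and Hsp90 with SGT1 and RAR1 also holds immune receptors in a working state.

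Across the groups, the members together took 0.227 ± 0.0376% of all FPKM in pad4 labelled -Fe, 0.472 ± 0.0869% in pad4 labelled +Fe, 0.946 ± 0.105% in wild type labelled -Fe and 0.264 ± 0.0334% in wild type labelled +Fe (SD, n = 3 each). Wild-type libraries labelled -Fe were highest for 8 of the 10 members, followed for all 8 by pad4 libraries labelled +Fe. BAG6 and MBF1C were highest in pad4 labelled +Fe. Between the iron labels the mutant and the wild type went opposite ways for most members: 7 fell in pad4 libraries labelled -Fe (31.0% of all loci tested did so), while 9 had higher, non-overlapping values in wild-type libraries labelled -Fe (28.8% of all loci). Because these are whole-sample measurements, fewer cells of a type and less RNA per cell cannot be told apart.

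**Figure D1:**
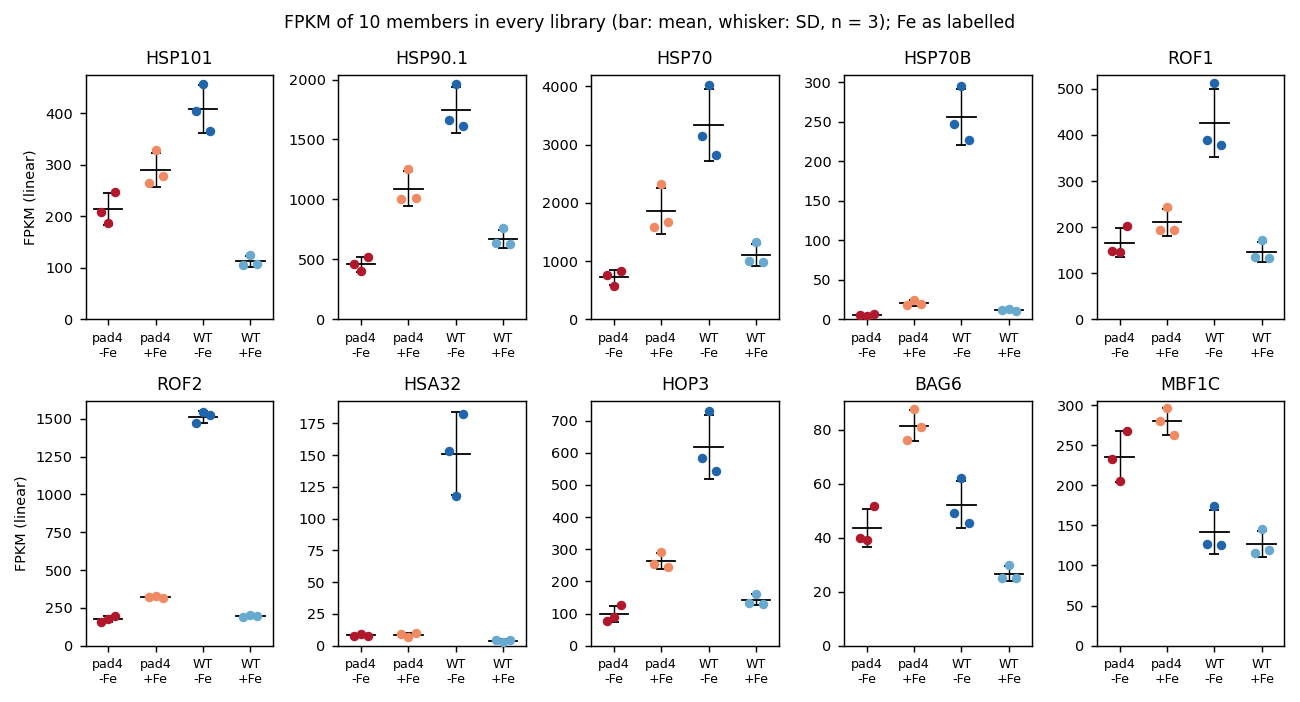
FPKM (linear axis from 0) of the 10 members in every library, 1 panel per gene, with the groups from left to right pad4 -Fe, pad4 +Fe, wild type -Fe and wild type +Fe as labelled; points are libraries, bars means and whiskers SD (n = 3). Wild-type -Fe libraries stand above all others for 8 genes, while BAG6 and MBF1C are highest in pad4 +Fe.

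HSP101 (AT1G74310, TAIR10 chromosome 1, 27935298 to 27940190) encodes the cytosolic ClpB-type disaggregase that seedlings need for acquired thermotolerance. It stood at 208, 187 and 247 FPKM in pad4 labelled -Fe, 264, 328 and 277 FPKM in pad4 labelled +Fe, 403, 457 and 365 FPKM in wild type labelled -Fe, and 106, 125 and 107 FPKM in wild type labelled +Fe. No groups overlapped, and both pad4 groups lay between the wild-type groups. HSP101 fell in pad4 between the labels, by 0.44 on the log2(FPKM + 1) scale (SE 0.13, limma adjusted p = 0.0115), a call lost without pad4 labelled -Fe replicate 2 (log2 difference -0.35, adjusted p = 0.0501). The span of this locus in the expression table also holds AT1G74300, a gene at 8.45 to 13.2 FPKM in the group means.

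HSA32 (AT4G21320, chromosome 4, 11340362 to 11341877) encodes a heat-stress-associated protein unrelated to the classic chaperone families, which acts with HSP101 in keeping thermotolerance over days. It stood at 7.99, 9.17 and 7.87 FPKM in pad4 labelled -Fe, 9.02, 7.22 and 9.65 FPKM in pad4 labelled +Fe, 153, 118 and 183 FPKM in wild type labelled -Fe, and 4.21, 2.63 and 4.69 FPKM in wild type labelled +Fe. The wild-type libraries labelled -Fe stood apart from all others, and the pad4 groups overlapped each other. Mean FPKM was 39.4-fold higher in wild type labelled -Fe than in wild type labelled +Fe, whereas the difference between the labels in pad4 did not pass the test (log2 difference -0.04, SE 0.19, limma adjusted p = 0.878). In the 6 pad4 libraries HSP101 thus lay between 187 and 328 FPKM and HSA32, its partner in thermotolerance, between 7.22 and 9.65 FPKM.

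The HSP70 gene AT3G12580 (chromosome 3, 3991261 to 3993792), an inducible cytosolic Hsp70, was the most abundant member. It stood at 754, 577 and 827 FPKM in pad4 labelled -Fe, 1591, 2322 and 1665 FPKM in pad4 labelled +Fe, 3143, 4029 and 2827 FPKM in wild type labelled -Fe, and 998, 1327 and 983 FPKM in wild type labelled +Fe. No neighbouring groups overlapped. By mean FPKM it was the locus of rank 139 of 28693 in pad4 labelled -Fe, 19 in pad4 labelled +Fe, 8 in wild type labelled -Fe and 51 in wild type labelled +Fe.

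HSP70B (AT1G16030, chromosome 1, 5502206 to 5504535), a second inducible cytosolic Hsp70, was far lower. It stood at 5.19, 4.55 and 6.64 FPKM in pad4 labelled -Fe, 18.5, 25.1 and 19.4 FPKM in pad4 labelled +Fe, 247, 295 and 226 FPKM in wild type labelled -Fe, and 11.4, 13.2 and 11.0 FPKM in wild type labelled +Fe. Again no groups overlapped. The ratio of HSP70B to HSP70 was 0.0076 ± 0.00063 in pad4 labelled -Fe, 0.0114 ± 0.00048 in pad4 labelled +Fe, 0.0774 ± 0.0036 in wild type labelled -Fe and 0.0109 ± 0.00079 in wild type labelled +Fe, so these paralogs were not in a fixed proportion. Both fell in pad4 between the labels, HSP70B by 1.77 (SE 0.15, limma adjusted p = 1.74e-06) and HSP70 by 1.36 on the log2 scale (SE 0.20, adjusted p = 0.000132). Hsp70 genes are alike in sequence, and how reads shared between them were counted is not given in the sources used here.

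HSC70-1, the constitutive cytosolic Hsp70 and the most abundant relative, had a narrower spread, at 2853 ± 319 FPKM in pad4 labelled -Fe, 4396 ± 466 FPKM in pad4 labelled +Fe, 3264 ± 367 FPKM in wild type labelled -Fe and 4071 ± 279 FPKM in wild type labelled +Fe. It fell in pad4 between the labels by 0.62 on the log2 scale (SE 0.13, limma adjusted p = 0.00189). The ratio of HSP70 to HSC70-1 was accordingly 0.251 ± 0.0208 in pad4 labelled -Fe, 0.420 ± 0.0446 in pad4 labelled +Fe, 1.02 ± 0.106 in wild type labelled -Fe and 0.270 ± 0.0283 in wild type labelled +Fe (SD, n = 3 each). The inducible gene thus reached the level of the constitutive one in wild type labelled -Fe, and lay below it in every library of the other groups.

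BAG6 (AT2G46240, chromosome 2, 18986133 to 18989947) encodes a calmodulin-binding BAG protein, a family that binds Hsp70 as co-chaperones. It stood at 39.9, 39.3 and 51.9 FPKM in pad4 labelled -Fe, 76.1, 87.6 and 81.0 FPKM in pad4 labelled +Fe, 49.3, 62.3 and 45.4 FPKM in wild type labelled -Fe, and 25.1, 29.9 and 25.1 FPKM in wild type labelled +Fe. The pad4 libraries labelled +Fe were highest, and the groups labelled -Fe overlapped each other. BAG6 fell in pad4 between the labels by 0.89 on the log2 scale (SE 0.13, limma adjusted p = 0.000173).

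HSP90.1 (AT5G52640, chromosome 5, 21352399 to 21355361) is the heat-inducible cytosolic Hsp90. It stood at 459.9, 399.5 and 524 FPKM in pad4 labelled -Fe, 1000.3, 1256 and 1016 FPKM in pad4 labelled +Fe, 1666, 1963 and 1612 FPKM in wild type labelled -Fe, and 633, 758 and 627 FPKM in wild type labelled +Fe. No neighbouring groups overlapped, and pad4 labelled -Fe was the lowest. HSP90.1 fell in pad4 between the labels by 1.24 on the log2 scale (SE 0.13, limma adjusted p = 1.32e-05). The constitutive copies HSP90.2 and HSP90.3 share 1 merged locus in the table. The ratio of HSP90.1 to that locus was 0.295 ± 0.0294 in pad4 labelled -Fe, 0.781 ± 0.0650 in pad4 labelled +Fe, 0.854 ± 0.0920 in wild type labelled -Fe and 0.585 ± 0.0282 in wild type labelled +Fe, with no overlap between pad4 labelled -Fe and any other group.

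HOP3 (AT4G12400, chromosome 4, 7338659 to 7341363) encodes an Hsp70-Hsp90 organising protein. It stood at 77.5, 89.4 and 126 FPKM in pad4 labelled -Fe, 254, 292 and 244 FPKM in pad4 labelled +Fe, 583, 728 and 542 FPKM in wild type labelled -Fe, and 134, 162 and 131 FPKM in wild type labelled +Fe. The groups did not overlap and had the same order as for HSP70 and HSP90.1. HOP3 fell in pad4 between the labels by 1.45 on the log2 scale (SE 0.17, limma adjusted p = 2.68e-05). Its ratio to HOP2, a relative, was 1.64 ± 0.250 in pad4 labelled -Fe, 2.83 ± 0.201 in pad4 labelled +Fe, 5.17 ± 0.313 in wild type labelled -Fe and 1.81 ± 0.101 in wild type labelled +Fe.

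ROF1 (AT3G25230, chromosome 3, 9188181 to 9191419) and ROF2 (AT5G48570, chromosome 5, 19690542 to 19693845) encode related FKBP immunophilins with TPR repeats, of which ROF1 binds HSP90.1. ROF1 stood at 149, 147 and 202 FPKM in pad4 labelled -Fe, 193, 244 and 195 FPKM in pad4 labelled +Fe, 389, 512 and 379 FPKM in wild type labelled -Fe, and 136, 172 and 133 FPKM in wild type labelled +Fe. Only the wild-type libraries labelled -Fe stood apart, and the neighbours among the other 3 groups overlapped. ROF2 stood at 158, 177 and 197 FPKM in pad4 labelled -Fe, 324, 328 and 314 FPKM in pad4 labelled +Fe, 1469, 1541 and 1522 FPKM in wild type labelled -Fe, and 191, 199.7 and 196 FPKM in wild type labelled +Fe. Here pad4 labelled -Fe overlapped wild type labelled +Fe.

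The ratio of ROF2 to ROF1 was 1.08 ± 0.116 in pad4 labelled -Fe, 1.54 ± 0.175 in pad4 labelled +Fe, 3.60 ± 0.524 in wild type labelled -Fe and 1.35 ± 0.165 in wild type labelled +Fe. In pad4, ROF2 fell between the labels by 0.86 on the log2 scale (SE 0.08, limma adjusted p = 3.33e-06). ROF1 did not pass the test (log2 difference -0.35, SE 0.16, adjusted p = 0.088), though it did without pad4 labelled -Fe replicate 3 (-0.50, adjusted p = 0.021).

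MBF1C (AT3G24500, chromosome 3, 8918679 to 8923073) is a transcriptional coactivator of heat tolerance and not a chaperone. It stood at 233, 205 and 268 FPKM in pad4 labelled -Fe, 280.0, 296 and 263 FPKM in pad4 labelled +Fe, 127, 174 and 125 FPKM in wild type labelled -Fe, and 116, 146 and 119 FPKM in wild type labelled +Fe. It separated the genotypes and not the labels: all 6 pad4 libraries lay above all 6 wild-type libraries, and the labels overlapped within each genotype. Its difference between the labels in pad4 did not pass the test (log2 difference -0.25, SE 0.14, limma adjusted p = 0.145), but did after quantile normalization (-0.36, adjusted p = 0.0472). The span of this locus in the table also holds ALDH2C4, at 69.9 ± 9.41 FPKM in pad4 labelled -Fe, 63.3 ± 6.97 FPKM in pad4 labelled +Fe, 69.9 ± 9.85 FPKM in wild type labelled -Fe and 103 ± 10.9 FPKM in wild type labelled +Fe, and whether counting used strand is not given in the sources used here.

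The difference between the iron labels in the wild type was in view when the list was drawn up, so it is given as a description. Of the 10 members, 9 were higher in the wild-type libraries labelled -Fe without overlap, beside 28.8% of all loci tested, and MBF1C overlapped. Ratios of mean FPKM, labelled -Fe over labelled +Fe, ran from 1.12 for MBF1C and 1.96 for BAG6 through 2.60 for HSP90.1, 2.90 for ROF1, 3.02 for HSP70, 3.62 for HSP101 and 4.34 for HOP3 to 7.72 for ROF2, 21.5 for HSP70B and 39.4 for HSA32. The members with the largest ratios were 2 of low level in wild type labelled +Fe, HSA32 at 3.84 ± 1.08 FPKM and HSP70B at 11.9 ± 1.18 FPKM, together with ROF2 at 196 ± 4.15 FPKM.

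The contrast between the labels in pad4 uses no wild-type library for its difference, though the fit pools the spread of all 12 libraries. In pad4, 7 of 10 members fell and 0 rose (limma adjusted p under 0.05; 7 and 0 also at an unadjusted p under 0.05), beside 31.0% and 26.3% of all loci tested. The median log2 difference of the members was -0.88, that of all loci -0.05. The 3 members that did not pass were ROF1, HSA32 and MBF1C. In the authors' deposited table for this comparison, 8 members fell at a q-value under 0.05, the 7 and ROF1 (q = 0.00746). The authors' own significance column in that deposited table marked 4 of the 10, HSP90.1, HSP70, HSP70B and HOP3.

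**Figure D2:**
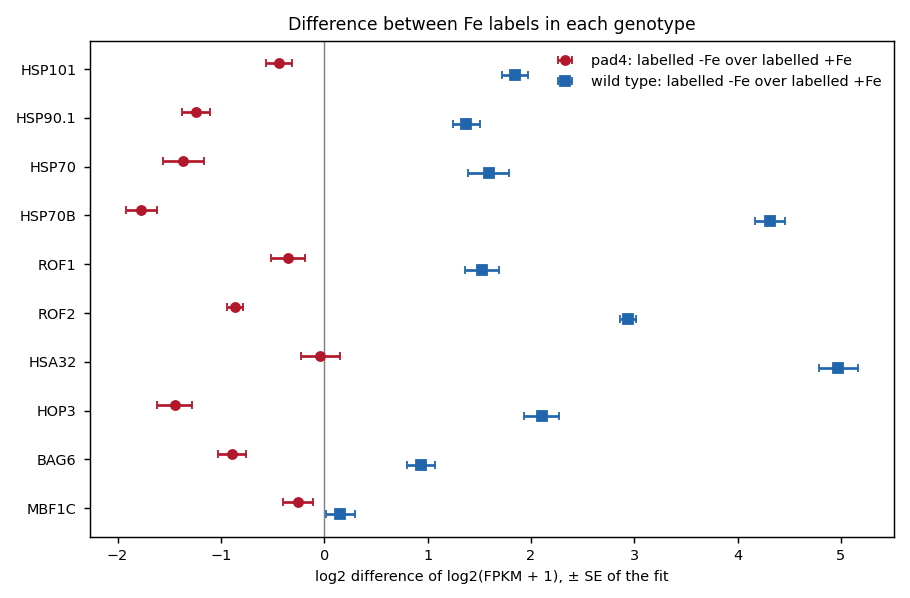
Log2 difference (log2(FPKM + 1), labelled -Fe over labelled +Fe) of the 10 members in pad4 (circles) and in the wild type (squares), with whiskers for the SE of the fit. All circles lie below 0, from -1.77 for HSP70B to -0.04 for HSA32 (above 0 for HSA32 after quantile or median-of-ratios scaling), and all squares above 0, from 0.15 for MBF1C to 4.98 for HSA32.

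The genotypes were compared at each label. In libraries labelled +Fe, 9 of 10 members were higher in pad4 than in the wild type and 0 lower (limma adjusted p under 0.05; 10 and 0 at an unadjusted p under 0.05), beside 3.69% and 5.66% of all loci tested. The median log2 difference of the members was 0.82, against 0.01 for all loci. These values share the wild-type libraries labelled +Fe with the contrast that was in view when the list was drawn up. They are therefore not independent of the choice either. BAG6 rose by 1.58 on the log2(FPKM + 1) scale (SE 0.13, adjusted p = 5.57e-05) and HSP101 by 1.35 (SE 0.13, adjusted p = 9.65e-05), with mean FPKM 3.05-fold and 2.57-fold higher in pad4. MBF1C and HSA32 followed, with log2 differences of 1.14 and 1.01 (limma adjusted p = 0.000567 and 0.00625) and mean FPKM 2.21-fold and 2.25-fold higher, so that their order depends on the scale. HOP3, HSP70B, ROF2 and HSP90.1 rose by 0.89, 0.76, 0.71 and 0.69 (limma adjusted p = 0.00773, 0.00774, 0.000246 and 0.00761).

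For all 10 members the 3 pad4 libraries lay above the 3 wild-type libraries without overlap, beside 15.7% of all loci tested. HSP70 and ROF1 nevertheless sat at the threshold of the test. HSP70 passed (log2 difference 0.75, SE 0.20, limma adjusted p = 0.0376) but lost the call without a filter on low values (adjusted p = 0.0621), after quantile normalization (0.0708), with only the groups compared in the fit (0.0541), and without any of 6 single libraries: wild type labelled -Fe replicate 1 (0.0542), wild type labelled +Fe replicates 1 and 3 (0.142 and 0.144), pad4 labelled -Fe replicate 1 (0.0513) and pad4 labelled +Fe replicates 2 and 3 (0.138 and 0.0685). ROF1 did not pass (0.52, SE 0.16, adjusted p = 0.0756) but did without wild type labelled -Fe replicate 2 (adjusted p = 0.0486), wild type labelled +Fe replicate 2 (0.0497) or pad4 labelled -Fe replicate 3 (0.0465). The 10 members were all higher in the authors' deposited table at a q-value under 0.05, and its own significance column marked 4 of them, HSP101, HSA32, BAG6 and MBF1C. In the authors' deposited tables every marked member had a log2 fold of at least 1.15 in size, and members left unmarked at a q-value under 0.05 had at most 0.97.

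In libraries labelled -Fe the order was turned round: 8 of 10 members were lower in pad4 than in the wild type and 1, MBF1C, was higher, beside 14.4% and 13.5% of all loci tested. The median log2 difference of the members was -2.07, against 0.01 for all loci. HSP70B fell by 5.32 (SE 0.15, limma adjusted p = 7.19e-10), a mean FPKM 47.0-fold lower in pad4, HSA32 fell by 4.00 (SE 0.19, adjusted p = 5.11e-08), 18.1-fold lower, and ROF2 by 3.09 (SE 0.08, adjusted p = 3.86e-10), 8.51-fold lower. HOP3, HSP70, HSP90.1, ROF1 and HSP101 fell by 2.67, 2.21, 1.92, 1.36 and 0.93 (limma adjusted p = 6.25e-07, 9.21e-06, 1.2e-06, 8.83e-05 and 0.000211). MBF1C rose by 0.73 (SE 0.14, adjusted p = 0.00241), and BAG6 did not pass (log2 difference -0.25, SE 0.13, adjusted p = 0.197). These differences rest on the wild-type libraries labelled -Fe, whose high values were in view when the list was drawn up, so they are not independent of the choice.

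**Figure D3:**
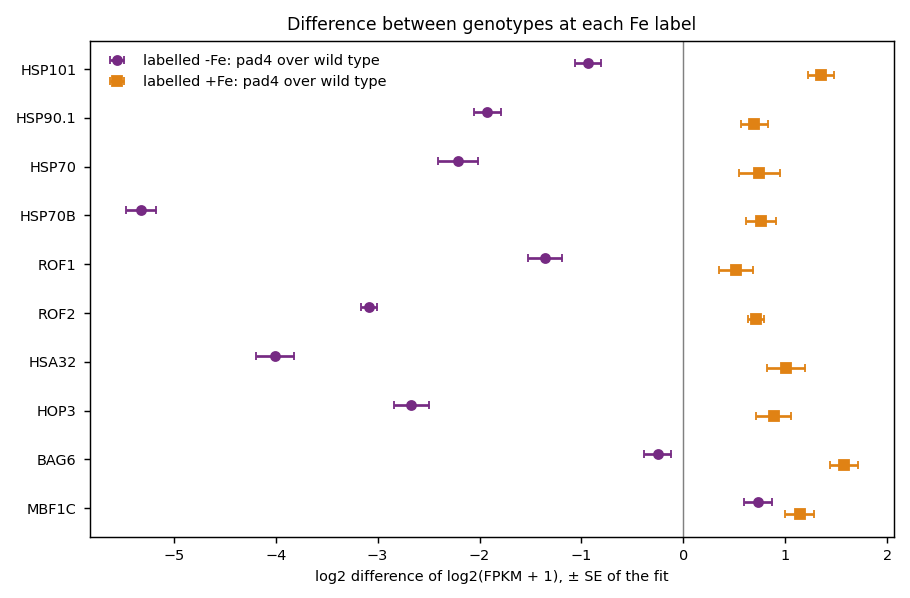
Log2 difference (log2(FPKM + 1), pad4 over wild type) of the 10 members in libraries labelled -Fe (circles) and labelled +Fe (squares), with whiskers for the SE of the fit. All squares lie above 0, from 0.52 to 1.58, and all circles but that of MBF1C lie below 0, down to -5.32 for HSP70B.

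The interaction sets the label difference of the wild type against that of pad4, as pad4 minus wild type. It was negative and past the threshold for 9 of 10 members and positive for 0 (limma; 9 and 0 at an unadjusted p under 0.05), beside 7.58% and 7.07% of all loci tested. It also contains the wild-type contrast and is therefore not independent of the choice of the members. MBF1C was the exception, at -0.41 (SE 0.20, adjusted p = 0.211).

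The members differed in likeness to one another. Over the 45 pairs, Pearson's r of log2(FPKM + 1) across the 12 libraries had a median of 0.78, from -0.37 between HSP70B and MBF1C to 1.00 between HSP90.1 and HSP70. The 12 points are 4 groups of 3, so these values mostly reflect the order of 4 group means. With the mean standardised profile of the 10 members, r was 0.06 for MBF1C, 0.67 for BAG6 and 0.85 to 0.96 for the other 8. Each member is itself part of this profile, which raises its r, unlike that of loci outside the list. The 6 named loci outside the list with the highest r to this profile were IAA5 (0.97), an auxin response repressor gene, FC2 (0.96), a LAMMER-type kinase gene, FES1A (0.96), whose product binds cytosolic Hsp70, SQN (0.96), which encodes the Hsp90-binding cyclophilin 40, GOLS1 (0.95), a heat-induced galactinol synthase gene, and TRP1 (AT5G59430; 0.95), a telomere repeat binding protein gene.

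Within groups most members also deviated together. In 1 library of each group, pad4 labelled -Fe replicate 3, pad4 labelled +Fe replicate 2, wild type labelled -Fe replicate 2 and wild type labelled +Fe replicate 2, 9 of 10 members lay above the group mean, by up to 0.39 log2 units. HSA32 lay below it in these 4, by 0.07 to 0.39. The share of all loci above the group mean was not counted, so this is no result about the members in particular. The same 4 libraries stand apart over all loci: their deviations from the group means correlated at 0.41 to 0.51 in their 6 pairs, against -0.42 to 0.29 in the other 48 pairs (across loci, which are not independent replicates). Without these 4 libraries, chosen after the data were seen, every member kept its direction in the comparisons between labels in pad4 and between genotypes, and ROF1 in pad4 (-0.39, limma adjusted p = 0.00028) and between genotypes labelled +Fe (0.53, adjusted p = 0.000729), MBF1C in pad4 (-0.31, adjusted p = 0.00612), BAG6 between genotypes labelled -Fe (-0.25, adjusted p = 0.0181) and the interaction of MBF1C (-0.42, adjusted p = 0.0252) passed the test as well. Leaving out 1 deviating library per group narrows the spread, so these gained calls are no separate result about the members. Calls over all loci rose too, in pad4 between the labels from 11572 of 20173 to 12245 of 19810. They rose from 1887 to 3151 between genotypes labelled +Fe, from 5631 to 6370 labelled -Fe and from 2957 to 4020 in the interaction.

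**Figure D4:**
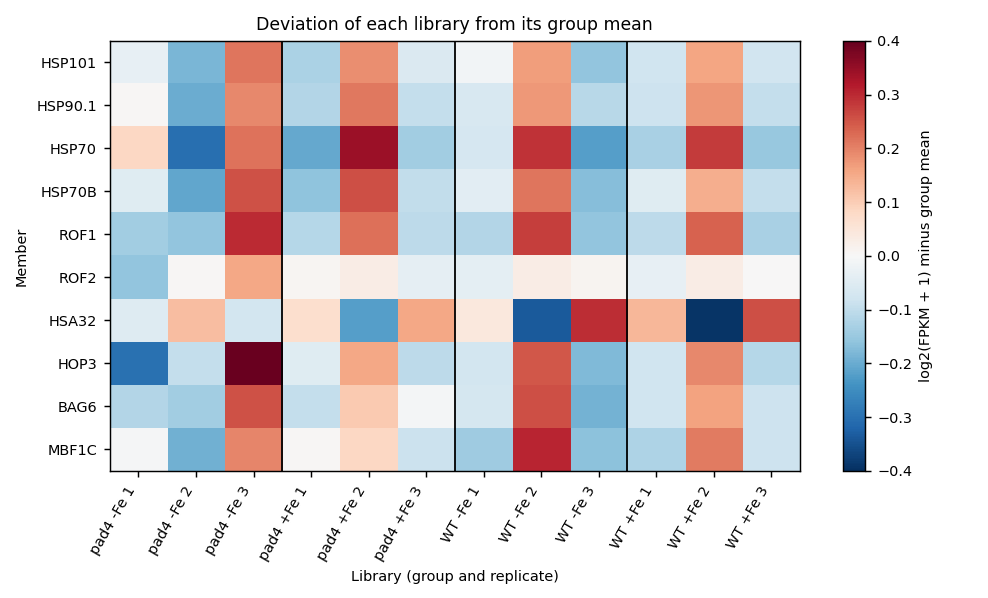
Deviation of log2(FPKM + 1) from the group mean for each member (rows) and library (columns, grouped as pad4 -Fe, pad4 +Fe, wild type -Fe and wild type +Fe as labelled); red is above and blue below the group mean. In 1 library per group 9 rows are red together, and the row of HSA32 runs the other way.

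The closest relatives of the members did not all move with them. CLPB3, the chloroplast ClpB, stood at 65.4 ± 5.16 FPKM in pad4 labelled -Fe, 80.9 ± 4.09 FPKM in pad4 labelled +Fe, 313 ± 11.8 FPKM in wild type labelled -Fe and 73.3 ± 0.548 FPKM in wild type labelled +Fe. The wild-type libraries labelled -Fe stood apart, and the ratio of HSP101 to CLPB3 was 3.29 ± 0.532 in pad4 labelled -Fe and 3.59 ± 0.527 in pad4 labelled +Fe, against 1.31 ± 0.173 in wild type labelled -Fe and 1.54 ± 0.147 in wild type labelled +Fe. CLPB4, the mitochondrial ClpB, fell in pad4 between the labels (log2 difference -1.32, limma adjusted p = 8.93e-07).

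Of the 5 HSP90 loci beside HSP90.1, 4 were lower in pad4 than in the wild type in libraries labelled -Fe (14.4% of all loci tested were), with the endoplasmic reticulum form HSP90.7 (log2 difference -1.69) and the mitochondrial HSP90.6 (-1.54) first. In pad4 between the labels, HSP90.5 and HSP90.6, the organelle forms of chloroplast and mitochondrion, fell (-0.73 and -1.19, limma adjusted p = 0.00367 and 8.89e-05), and the cytosolic HSP90.4 rose (0.47, adjusted p = 0.000331). The merged locus of HSP90.2 and HSP90.3 did not pass there (0.16, adjusted p = 0.121). Of 15 HSP70 relatives tested, 9 fell and 1 rose in pad4 between the labels, beside 31.0% and 26.3% of all loci tested. Between genotypes labelled -Fe, 13 fell and 0 rose (14 and 0 at an unadjusted p under 0.05), beside 14.4% and 13.5% of all loci.

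In the smaller families some relatives moved with the members and others did not. HOP2 fell as HOP3 did, by 0.65 in pad4 between the labels and by 1.00 between genotypes labelled -Fe (limma adjusted p = 0.000202 and 2.15e-05), while HOP1 did not pass in either (0.11 and -0.04, limma adjusted p = 0.234 and 0.739) except that it was higher in pad4 labelled -Fe than in pad4 labelled +Fe after quantile normalization (0.17, adjusted p = 0.0426). The 2 other TPR-type FKBPs, PAS1 and TWD1, had log2 differences of -0.11 and -0.14 between genotypes labelled -Fe (limma adjusted p = 0.376 and 0.574), where ROF1 and ROF2 fell. TWD1 fell in pad4 between the labels (-0.45, adjusted p = 0.0324), where ROF1 did not pass, but not after quantile normalization (0.0578) or without pad4 labelled -Fe replicate 1 or 2 (0.0738 and 0.101) or pad4 labelled +Fe replicate 2 or 3 (0.105 and 0.0653). MBF1A and MBF1B had 0.21 and 0.06 between genotypes labelled +Fe (adjusted p = 0.634 and 0.651), where MBF1C rose. Between the labels in pad4, MBF1A fell by 1.17 (adjusted p = 0.00141), where MBF1C did not pass. Of the 6 other BAG genes, 1 rose and 0 fell between genotypes labelled +Fe (2 and 0 at an unadjusted p under 0.05), beside 3.69% and 5.66% of all loci tested. That 1 was BAG5 (0.40, limma adjusted p = 0.0221), which lost the call with only the groups compared in the fit (0.0533) and without wild type labelled +Fe replicate 1 or 3 (0.0833 and 0.103) or pad4 labelled +Fe replicate 1 or 2 (0.065 and 0.0862).

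Among 11 further co-chaperones of Hsp90 and Hsp70, 6 fell and 0 rose between genotypes labelled -Fe (8 and 0 at an unadjusted p under 0.05), beside 14.4% and 13.5% of all loci tested. Those that fell included FES1A (log2 difference -0.79, limma adjusted p = 0.00242) and AHA1, an activator of the Hsp90 ATPase (-0.86, adjusted p = 0.00264). SGT1A and SGT1B, the Hsp90 partners in immunity, fell by 0.35 and 0.24 there (limma adjusted p = 0.0331 and 0.019). Both calls were lost with only the groups compared in the fit (adjusted p = 0.0652 and 0.068), that of SGT1A without wild type labelled -Fe replicate 2 or pad4 labelled -Fe replicate 1 or 2 (0.114, 0.0827 and 0.114), and that of SGT1B without wild type labelled -Fe replicate 1 or 3 or pad4 labelled -Fe replicate 2 or 3 (0.0587, 0.059, 0.0536 and 0.0619). RAR1 did not pass in any contrast, and in this one its log2 difference was -0.09 (adjusted p = 0.782). Chaperones of the endoplasmic reticulum and regulators of its stress response were lower in pad4 labelled -Fe for 12 of 12 genes (14.4% of all loci tested were), among them BIP2 (-2.12, adjusted p = 1.08e-08) and BIP1 (-1.81, adjusted p = 4.84e-08). This list is not separate from the families above: BIP1, BIP2 and BIP3 are also counted as HSP70 relatives, and HSP90.7 as an HSP90 relative. In pad4 between the labels, 3 of these 12 rose and 4 fell, beside 26.3% and 31.0% of all loci. BIP1 and BIP2 did not pass there (0.08 and 0.04, adjusted p = 0.406 and 0.677).

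The 7 other heat markers, 5 small heat shock protein genes, GOLS1 and the ascorbate peroxidase gene APX2, were all lower in pad4 than in the wild type in libraries labelled -Fe, beside 14.4% of all loci tested. High levels of heat shock genes in the wild-type libraries labelled -Fe were in view when the lists were drawn up. This count is therefore not independent of the choice. In pad4 between the labels 6 fell, beside 31.0% of all loci. Of these 6, APX2, HSP21 and HSP22 lay near the floor in pad4. APX2 stood there at 0 to 0.364 FPKM labelled -Fe and 0.715 to 1.47 FPKM labelled +Fe. In the same order, HSP21 stood at 0 to 0.087 and 1.15 to 2.00 FPKM, and HSP22 at 0.327 to 0.635 and 1.13 to 1.47 FPKM. APX2 passed the filter on low values only through the wild-type libraries labelled -Fe, at 33.0 to 38.3 FPKM. It remains in the counts of this paragraph, but its calls depend on that filter and add no support to them. GOLS1, which makes the first intermediate of raffinose sugars, stood at 48.4 ± 9.60 FPKM in pad4 labelled -Fe, 144 ± 24.6 FPKM in pad4 labelled +Fe, 870.1 ± 234 FPKM in wild type labelled -Fe and 66.5 ± 9.10 FPKM in wild type labelled +Fe. HSP23.6, the mitochondrial small heat shock protein, had the widest fall in pad4 between the labels (log2 difference -4.07, limma adjusted p = 2.04e-09) and rose between genotypes labelled +Fe (1.90, adjusted p = 3.51e-05). HSP18.2 did not pass in pad4 between the labels (-0.01, adjusted p = 0.974). Over the 77 loci tested of all 11 lists of relatives, co-chaperones, factors and markers, each counted once, 9 rose and 41 fell in pad4 between the labels (26.3% and 31.0% of all loci tested did). Labelled +Fe, 15 were higher and 4 lower in pad4 than in the wild type (3.69% and 5.66% of all loci). Labelled -Fe, 8 were higher and 44 lower (13.5% and 14.4% of all loci). All 11 lists were drawn up with earlier wild-type results in view, so their counts against the wild type are not independent of the choice.

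**Figure D5:**
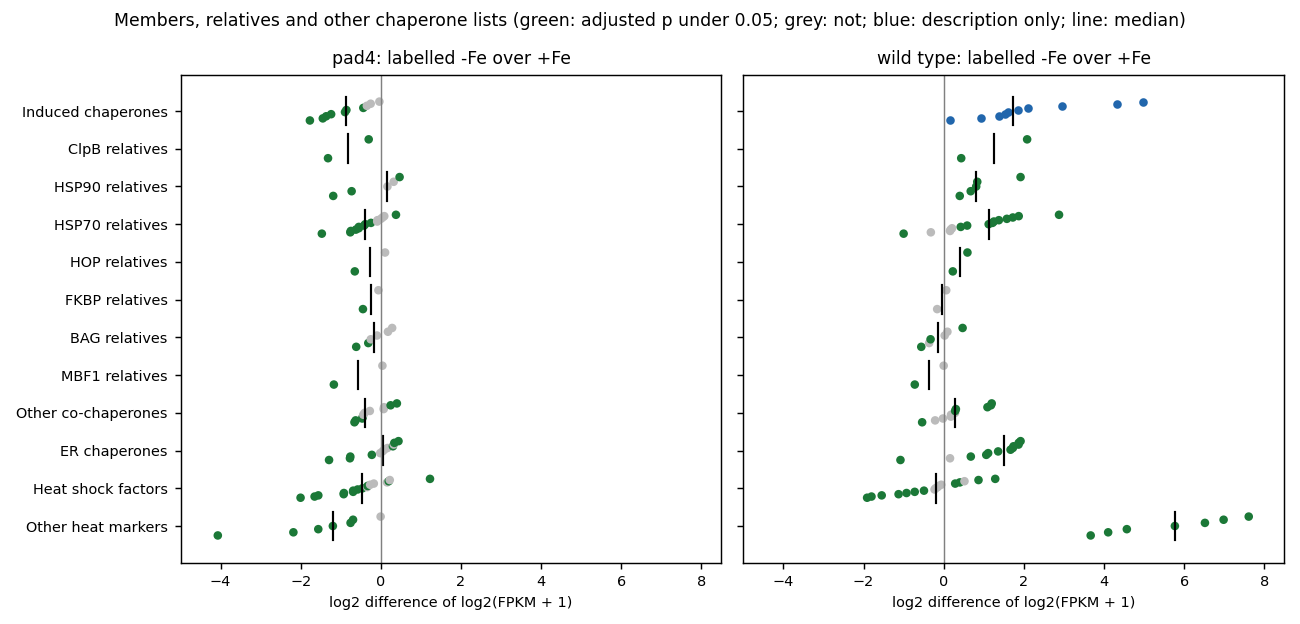
Log2 difference (log2(FPKM + 1), labelled -Fe over labelled +Fe) of each gene in the members and the 11 companion lists, in pad4 on the left and in the wild type on the right; green points passed an adjusted p under 0.05, grey did not, blue points (the members in the wild type) are given as a description, and lines are medians. The members' median is -0.88 in pad4 and 1.72 in the wild type, and that of the other heat markers -1.20 and 5.77. The companion lists were also drawn up with earlier results known, so their calls in the wild type are not independent of that choice.

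The transcripts of the heat shock factors, which include class B repressors beside the activators, did not share 1 pattern. Of 17 heat shock factor genes and related regulators tested, 2 rose and 10 fell in pad4 between the labels, beside 26.3% and 31.0% of all loci tested. Labelled +Fe, 5 were higher and 0 lower in pad4 than in the wild type (6 and 1 at an unadjusted p under 0.05), beside 3.69% and 5.66% of all loci. Labelled -Fe, 7 were higher and 3 lower, beside 13.5% and 14.4% of all loci. HSFA2, the heat-induced activator that prolongs the response, stood at 111 ± 7.22 FPKM in pad4 labelled -Fe, 125 ± 11.7 FPKM in pad4 labelled +Fe, 76.7 ± 4.19 FPKM in wild type labelled -Fe and 63.0 ± 6.57 FPKM in wild type labelled +Fe. It was higher in pad4 at both labels (log2 difference 0.52 labelled -Fe and 0.98 labelled +Fe, limma adjusted p = 0.00151 and 0.000105), as MBF1C was. DREB2A, which acts upstream of HSFA3 in heat, was also higher in pad4 at both labels (1.53 labelled -Fe and 0.91 labelled +Fe, adjusted p = 0.000187 and 0.0171). The call labelled +Fe was lost without wild type labelled +Fe replicate 1 or 3 (limma adjusted p = 0.0764 and 0.0769) or pad4 labelled +Fe replicate 2 (0.0705).

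HSFB1, a class B factor known as a repressor that is itself heat-induced, had the same order of group means as HSP70, HSP90.1 and HOP3. It stood at 32.3 ± 2.26 FPKM in pad4 labelled -Fe, 48.9 ± 5.90 FPKM in pad4 labelled +Fe, 104 ± 1.81 FPKM in wild type labelled -Fe and 42.1 ± 3.02 FPKM in wild type labelled +Fe. Its groups labelled +Fe overlapped, and the genotypes did not differ past the threshold there (log2 difference 0.21, limma adjusted p = 0.192). Among the factors it had the highest r with 8 members over the 12 libraries, from 0.70 with HSP101 to 1.00 with HSP70B, and HSFA2 had the highest with BAG6 (0.78) and MBF1C (0.97). HSFB2B, a second class B repressor, was lowest in wild type labelled -Fe, at 19.9 ± 2.57 FPKM in pad4 labelled -Fe, 25.4 ± 3.09 FPKM in pad4 labelled +Fe, 3.36 ± 0.411 FPKM in wild type labelled -Fe and 14.3 ± 2.52 FPKM in wild type labelled +Fe. The HSFA1 genes, which start the response, did not move as 1 group. Between genotypes labelled -Fe, HSFA1D fell by 0.33 (limma adjusted p = 0.00212), HSFA1E rose by 0.38 (adjusted p = 0.0179), and HSFA1A and HSFA1B did not pass (-0.15 and 0.18, adjusted p = 0.621 and 0.540). The call of HSFA1E was lost with only the groups compared in the fit (adjusted p = 0.0684) and without wild type labelled -Fe replicate 1 (0.0583) or pad4 labelled -Fe replicate 2 (0.0688). In pad4 between the labels, HSFA1A and HSFA1B fell by 0.69 each (limma adjusted p = 0.0109 and 0.00845), the first not without pad4 labelled -Fe replicate 1 (adjusted p = 0.0502).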

How the data were processed

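The expression table holds FPKM per locus and library, computed by the authors before it was deposited, on TAIR10 per the submitters' processing notes. No source used here names the aligner or the counting tool. It has 28693 loci, of which 354 merge several genes. Per the file headers, 4 deposited tables give log2 folds, p-values and q-values of the authors' own comparisons. The test score that the authors also deposited was not used. A locus was tested if at least 3 libraries reached 1 FPKM, which 20173 did. The test was limma 3.58.1 (R 4.3.3, eBayes, trend on) applied to log2(FPKM + 1), a scale that understates changes of low genes. A single fit held the 12 libraries, with a mean for each of the 4 groups. A call needed a p under 0.05 after Benjamini-Hochberg adjustment over all loci tested. The absolute depth is unknown, so no counting intervals are given. Counts of members stand beside the share of all loci called, and no set test was run. The fit was tested on simulated data.

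Members, companion lists (from textbook knowledge) and the naming rule were chosen with earlier results of these data known. Named genes are the 10 members, per list the gene of highest mean FPKM and up to 3 called genes with the smallest adjusted p per contrast, selected factors and Hsp90 partners by name, the label checks, and the 6 symbol-bearing loci with a mean of at least 5 FPKM and the highest r with the members. Alternatives were no low-value filter, quantile or median-of-ratios scaling, no trend, a pseudocount of 0.1, the replicate block, only the groups compared, and each library left out; leaving out 4 libraries was added after the data were seen.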

Additional observations from a re-analysis of the deposited data

Results flagged for a closer look

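For 9 of the 10 members the difference between the iron labels was not the same in pad4 as in the wild type, by a test of the difference itself (limma interaction, labelled -Fe over labelled +Fe in pad4 minus the same in the wild type, log2 units). HSP70B had the widest interaction, -6.08 (SE 0.21, adjusted p = 8.77e-09), and HSA32 the next, -5.01 (SE 0.26, adjusted p = 3.65e-07). For HSP70B both genotypes contributed, with a log2 difference between the labels of -1.77 in pad4 and 4.31 in the wild type, whereas for HSA32 the values were -0.04 and 4.98. ROF2 followed at -3.80 (SE 0.11, adjusted p = 2.37e-09) and HOP3 at -3.55 (SE 0.24, adjusted p = 2.99e-06). HSP70 and HSP90.1 had -2.96 and -2.62 (adjusted p = 3.85e-05 and 4.75e-06). HSP101 had -2.28 (adjusted p = 8.59e-06), ROF1 -1.88 (adjusted p = 0.00027) and BAG6 -1.83 (adjusted p = 7.98e-05). In BAG6 both genotypes moved by about the same amount, -0.89 in pad4 and 0.94 in the wild type (SE 0.13 each). HSP90.1 was similar, at -1.24 and 1.38 (SE 0.13 each), as was HSP70, at -1.36 and 1.59 (SE 0.20 each). The wild-type contrast inside these values was in view when the members were chosen.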

How the results depend on the processing

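The counts of members called in pad4 between the labels, between genotypes at either label and in the interaction stayed within 1.5 times their values under every alternative run. Of the tested values of single members under these alternatives, 767 kept direction and side of the threshold, 10 lost a call and 10 gained one, which stand with their results. The other 3 are sign changes of HSA32 in pad4 between the labels, near 0 and past no threshold (0.035 after quantile normalization, 0.0012 after median-of-ratios scaling, and -0.15 to 0.040 with 1 library left out, the highest without pad4 labelled +Fe replicate 3). Of 8415 such values of companion and other named genes, 90 changed sign, 0 of them in a called value (limma). Among values printed here these were HSP90.2 in pad4 (-0.20 after quantile normalization), BIP2 in pad4 (-0.013 to 0.11 with 1 library left out), HSP18.2 in pad4 (0.048 after quantile normalization, 0.023 after median-of-ratios scaling, 0.0033 with a pseudocount of 0.1, 0.15 without the 4 libraries that stand apart, -0.15 to 0.18 with 1 library left out), and, between genotypes labelled -Fe, TWD1 (0.0017 without the 4 libraries, -0.28 to 0.065 with 1 left out), HOP1 (-0.097 to 0.0038) and RAR1 (-0.21 to 0.076). Quantile normalization moved the described wild-type values of HSP90.1, HSP70 and ROF2 to 1.09, 1.33 and 2.79 log2 units, and a pseudocount of 0.1 that of HSA32 to 5.28. Quantile and median-of-ratios scaling moved the median of all loci by at most 0.058 log2 units. Replicate numbers did not pair libraries throughout: of 18 same-numbered pairs, 10 had deviations correlated over 0.1 (r from -0.42 to 0.51), and 4 of 12 libraries correlated best with their own number. Replicate 2 of wild type labelled -Fe, wild type labelled +Fe and pad4 labelled +Fe correlated with one another at 0.41 to 0.51. The check therefore cannot exclude pairing in part of the groups. The replicate block left the member counts at 7 lower in pad4, 9 higher labelled +Fe, 1 higher and 8 lower labelled -Fe, and 9 lower in the interaction. Among companion genes, 4 were lower in pad4 labelled +Fe, and 2 with the replicate block or with no trend, and 2 to 4 when 1 library was left out. Of the companion genes, 3 had a positive interaction, 1 to 3 with 1 library left out and 5 without the 4 libraries that stand apart. Of all loci tested, 7.07% had one in the main fit. Depth, known only in relative terms, limits the precision of low members such as HSA32 in wild type labelled +Fe.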
